A study of Homo sapiens with 8 samples.

Results

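The genes described here are 52 human genes that act in G2 and mitosis, the last stages of the cell division cycle. They were taken from a list of names, with no threshold on their values. All 52 had a row among the 20897 Ensembl genes of the files, and all 52 passed the filter of at least 1 FPKM (a read-based level that takes account of transcript length and library size) in at least 2 libraries. They also all passed it in the DMSO libraries taken alone, so that no gene passed this filter only through a treated group. The list itself was drawn up with earlier results of these data known, so the counts below may not be independent of its choice.

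Expression was measured by sequencing polyA RNA of HepG2 cells, an established line from a human hepatocellular carcinoma that keeps many liver genes active and divides in culture. The groups were genistein (3 libraries), BMP6 at 50 ng/ml (2 libraries) and vehicle, DMSO (3 libraries). Genistein is a soy isoflavone known to inhibit tyrosine kinases, and BMP6 is a secreted bone morphogenetic protein that induces the iron hormone hepcidin in liver cells. The genistein dose is 10 micromolar in the series design, whereas the treatment protocol prints that figure in millimolar. Cells of every group, controls included, received 1% DMSO, moved 24 h after plating into 1% serum (10% during growth), stayed there for 8 h before treatment, and were harvested after 18 h of treatment. The design text calls the libraries biological replicates without saying that they came from separate cultures, so p-values measure the spread between these libraries.

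As background, a dividing cell accumulates the transcripts of mitotic regulators in G2. Cyclin B with the kinase CDK1 drives entry into mitosis, kinetochore proteins tie chromosomes to the spindle, the spindle checkpoint holds back the anaphase promoting complex until all are attached, and a central spindle guides cytokinesis. Many of these genes are held off in resting cells by the DREAM complex and switched on late in the cycle by MuvB with B-MYB and FOXM1, through a CHR element (cell cycle genes homology region) that often lies near CCAAT boxes bound by NF-Y.

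After genistein, 22 of the 52 genes were higher than in DMSO, none was lower and 30 did not pass the test (limma on log2(FPKM + 1), Benjamini-Hochberg adjusted p under 0.05 over 12661 tested genes). Among all tested genes 6.11% were higher and 5.96% lower. The 22 comprised 6 of 13 kinetochore and checkpoint genes, 1 of 4 genes of the chromosomal passenger complex, 6 of 12 spindle genes, 6 of 9 genes of the cyclin, CDK1 and mitotic entry group, none of 3 genes of anaphase and mitotic exit, 1 of 7 cytokinesis genes and 2 of 4 condensin and chromosome surface genes. The median log2 difference was 1.34 over the 52 genes, within a range of -0.29 to 2.497, and 0.05 over all tested genes. In 36 of the 52, every genistein library lay above every DMSO library, against 23.3% of all tested genes, and in none did every genistein library lie below, against 20.6% of all. The median FPKM of the 52 genes was 109.4, 105.3 and 108.5 in genistein 1, 2 and 3, 94.2 and 94.7 in BMP6 1 and 2, and 40.3, 51.4 and 48.7 in DMSO 1, 2 and 3.

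The number of calls rested on the libraries included. It was 7, 6 and 1 without genistein 1, 2 and 3, 13, 1 and 10 without DMSO 1, 2 and 3, and 30 without either BMP6 library, which enter through the shared estimate of the spread. CDCA8 was the call that remained without genistein 3 or without DMSO 2. The difference was positive in at least 48 genes under each of these 8 omissions. Housekeeping transcripts also had higher values after genistein, with a median log2 difference of 1.103 over 11 genes (range -0.73 to 1.5), although only TBP passed the test. When the libraries were scaled to those 11 genes, an alternative added after the data were seen, 11 of the 52 genes passed. The 11 that passed were 4 kinetochore, 1 passenger complex, 2 spindle, 3 cyclin and entry and 1 cytokinesis gene. With this scaling 38 of the 52 genes had a positive difference. At an unadjusted limma p under 0.05, 21 were higher and 2 lower. The median of the 52 genes moved to 0.57 and that of all tested genes to -0.65. Scaling moves all genes of a library by nearly the same amount, so the gap between these medians could hardly change. It was 1.22, against 1.29 without the scaling. In bulk RNA, more cells in G2 or mitosis and more RNA of these genes per cell cannot be told apart.

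**Figure D1:**
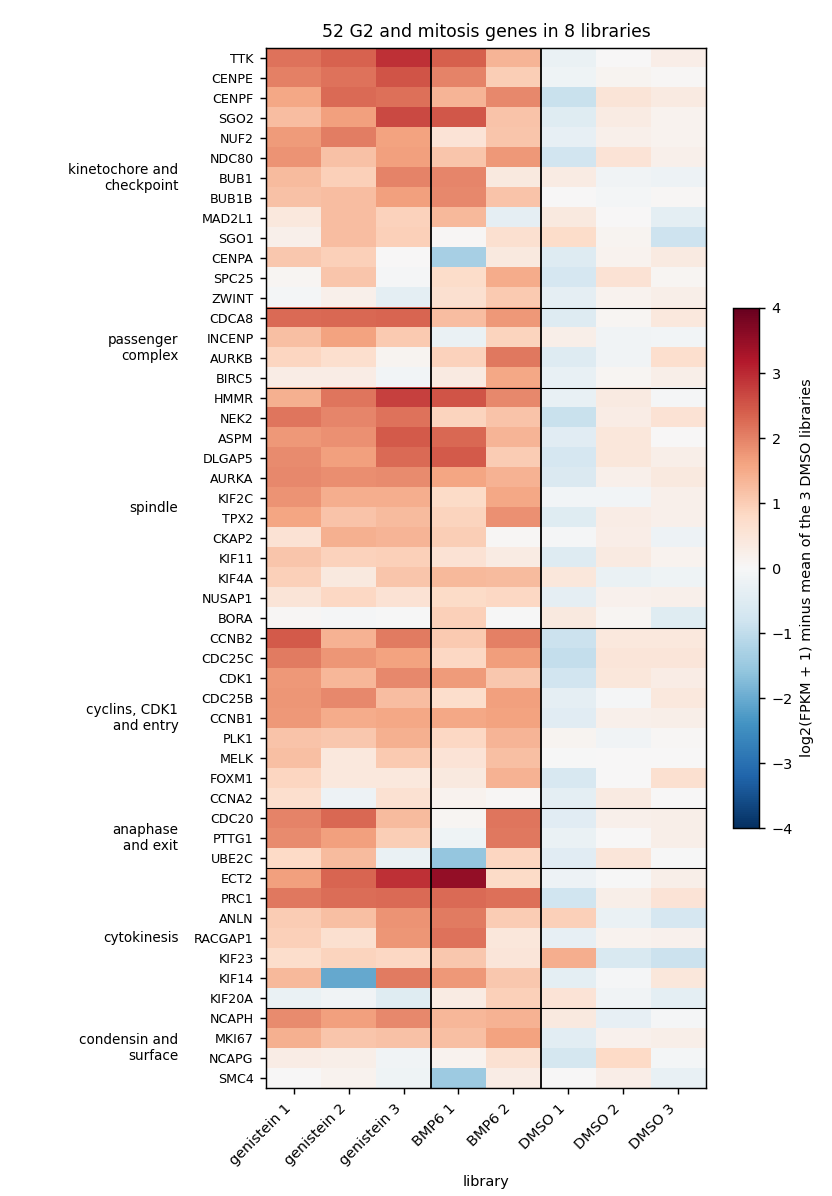
Values of the 52 genes (rows, grouped by role) in the 8 libraries (columns), as log2(FPKM + 1) minus the mean of the 3 DMSO libraries, with red above and blue below that mean. The genistein and BMP6 columns are mostly red, with medians of 105.3 to 109.4 FPKM and 94.2 to 94.7 FPKM over the 52 genes, and DMSO 1 holds the lowest value of 33 genes.

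Promoters are shown for the 3 called genes with the smallest p in genistein against DMSO whose window held both a CHR motif and a CCAAT box, and for 1 called gene without a CHR motif. Each is 300 bases, 250 before to 50 after the gene's start, from RefSeq (GRCh38.p14), 5′ to 3′ on the gene's strand. Capitals mark the CHR motif, TTTGAA on either strand or the palindrome TTTAAA. They also mark the CCAAT box on either strand. A match on the other strand shows as its reverse complement. The windows are chr1:37692266-37692565 (+ strand) for CDCA8, chr2:96335516-96335815 (+ strand) for NCAPH, chr15:90994486-90994785 (- strand) for PRC1 and chr1:211675572-211675871 (- strand) for NEK2. In CDCA8 a CHR motif shares bases with a CCAAT box, so their capitals run together.
CDCA8: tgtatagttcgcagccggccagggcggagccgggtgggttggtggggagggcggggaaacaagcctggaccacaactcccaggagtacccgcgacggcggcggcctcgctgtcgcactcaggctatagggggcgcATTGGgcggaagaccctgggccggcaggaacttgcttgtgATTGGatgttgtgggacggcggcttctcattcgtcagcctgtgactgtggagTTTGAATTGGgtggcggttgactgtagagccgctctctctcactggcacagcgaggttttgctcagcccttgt
NCAPH: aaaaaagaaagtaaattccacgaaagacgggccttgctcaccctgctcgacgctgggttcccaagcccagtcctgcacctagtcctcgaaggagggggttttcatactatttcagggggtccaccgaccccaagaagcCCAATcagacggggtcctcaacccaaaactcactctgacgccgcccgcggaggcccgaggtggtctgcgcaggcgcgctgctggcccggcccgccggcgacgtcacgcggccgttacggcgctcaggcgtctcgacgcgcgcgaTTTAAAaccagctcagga
PRC1: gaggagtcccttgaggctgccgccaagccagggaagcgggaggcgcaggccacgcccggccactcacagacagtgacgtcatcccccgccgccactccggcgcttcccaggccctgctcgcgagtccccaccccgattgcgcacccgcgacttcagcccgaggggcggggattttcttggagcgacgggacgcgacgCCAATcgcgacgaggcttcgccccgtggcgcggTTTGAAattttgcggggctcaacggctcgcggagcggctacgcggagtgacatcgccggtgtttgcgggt
NEK2: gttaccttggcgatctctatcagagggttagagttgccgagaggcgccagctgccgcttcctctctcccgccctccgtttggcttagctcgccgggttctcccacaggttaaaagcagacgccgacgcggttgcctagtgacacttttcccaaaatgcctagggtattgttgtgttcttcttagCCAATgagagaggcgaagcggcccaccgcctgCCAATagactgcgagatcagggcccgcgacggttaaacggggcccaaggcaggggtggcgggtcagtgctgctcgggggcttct

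The table of promoters had an entry for 45 of the 52 genes, all except AURKA, BIRC5, FOXM1, RACGAP1, TPX2, TTK and UBE2C. A CHR motif was found in 38 of the 45 (84.4%), against 27.9% of the 27305 genes with a promoter. A CCAAT box was found in 35 (77.8%), against 39.7%, and both in 29 (64.4%), against 11.2%. At least 1 CHR match lay in the last 120 bases of the window, close to the start, in 36 of the 45 genes (80.0%), against 11% of all genes. Among the 20 called genes with a promoter, 19 (95%) held a CHR motif and 13 (65%) held both motifs. Among the 25 that were not called, 19 (76%) held a CHR motif and 16 (64%) held both. These are matches of letters and were not set beside any binding data.

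**Figure D2:**
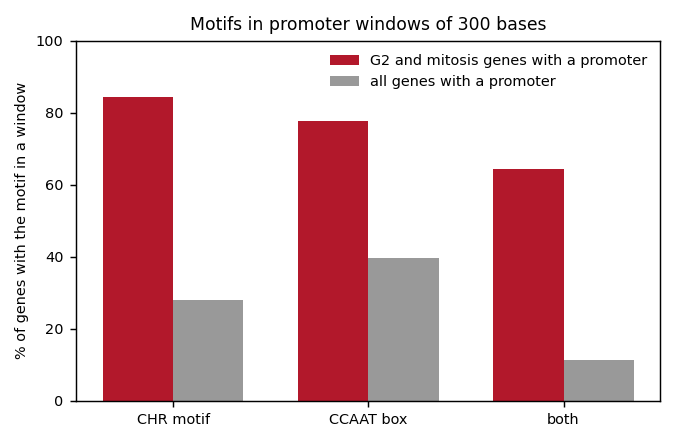
Share of genes (percent, vertical axis) whose 300-base promoter window holds a CHR motif, a CCAAT box or both, for the 45 G2 and mitosis genes with a promoter and for all 27305 genes with one. The shares are 84.4%, 77.8% and 64.4% of the G2 and mitosis genes, against 27.9%, 39.7% and 11.2% of all genes.

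Of the 13 kinetochore and checkpoint genes, 6 rose after genistein. Here and below, library values follow the replicate numbers (1 to 3 in genistein and DMSO, 1 and 2 in BMP6). TTK (MPS1), the kinase that starts spindle checkpoint signalling (ENSG00000112742; hg18, chromosome 6, 80771076 to 80808958), had 86.3, 98.3 and 145 FPKM in genistein, 98.8 and 47.7 in BMP6 and 15, 18.3 and 21.8 in DMSO. CENPE, the kinesin that carries chromosomes to the spindle equator, had 48.6, 53.9 and 69.2 FPKM in genistein, 47 and 23.4 in BMP6 and 9.91, 12.1 and 11.7 in DMSO. CENPF, a large outer kinetochore protein made in G2, had 152, 251 and 237 FPKM in genistein, 132 and 195 in BMP6 and 27.2, 74 and 66.1 in DMSO. All genistein and BMP6 libraries lay above all DMSO libraries for these 3 genes. The log2 change after genistein was 2.497 ± 0.38 for TTK (limma adjusted p = 0.00924), 2.24 ± 0.37 for CENPE (limma adjusted p = 0.0108) and 2.01 ± 0.44 for CENPF (limma adjusted p = 0.0259), each given with its SE. NUF2 and NDC80 are partners in the NDC80 complex, which binds microtubules. NUF2 had 146, 188 and 139.7 FPKM in genistein, 65.9 and 97.8 in BMP6 and 35.4, 51.3 and 49 in DMSO, and its genistein libraries stood above both BMP6 libraries as well (log2 change from DMSO 1.79 ± 0.31, limma adjusted p = 0.0129). NDC80 had 144, 94 and 129 FPKM in genistein, 89.7 and 138 in BMP6 and 23.9, 60.1 and 47.4 in DMSO, with DMSO 1 the lowest (log2 change 1.54 ± 0.41, limma adjusted p = 0.0467). BUB1B (BUBR1), a subunit of the mitotic checkpoint complex, had 71.3, 74.4 and 99.5 FPKM in genistein, 120.24 and 70.1 in BMP6 and 31.3, 29.5 and 32.4 in DMSO, with a log2 change of 1.35 ± 0.32 (limma adjusted p = 0.0322).

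The other 7 kinetochore genes did not pass. SGO2, a protector of centromeric cohesion, and BUB1, the kinase that marks centromeres for it, had log2 differences of 1.83 (limma adjusted p = 0.0557) and 1.40 (limma adjusted p = 0.0866), with no overlap between genistein and DMSO. MAD2L1 (MAD2), the checkpoint protein that binds CDC20, also had its genistein libraries above DMSO, with a difference of 0.86. SGO1, the paralog of SGO2, CENPA, the histone H3 variant of centromeres, and SPC25, a further NDC80 complex subunit, had differences of 0.80, 0.67 and 0.37 with overlapping groups. ZWINT, which anchors the checkpoint complex RZZ at kinetochores, had 116, 139 and 92.6 FPKM in genistein, 193 and 252 in BMP6 and 94.5, 134 and 144 in DMSO. Its genistein and DMSO libraries overlapped (log2 difference -0.09 ± 0.31), and the 2 BMP6 libraries were the highest. Without genistein 3 or without DMSO 2, none of the 13 passed, and 2 to 4 passed without any other genistein or DMSO library.

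In the chromosomal passenger complex, which corrects faulty kinetochore attachments, 1 of 4 genes rose after genistein. CDCA8 (borealin, a targeting subunit; ENSG00000134690; hg18, chromosome 1, 37930677 to 37947978) had 173, 175 and 177 FPKM in genistein, 82.9 and 118 in BMP6 and 24, 36.9 and 47.4 in DMSO. It had the smallest adjusted p of the 52 genes, with a log2 change after genistein of 2.30 ± 0.33 (limma adjusted p = 0.00792), and it passed under each of the 22 alternative settings, with changes between 1.53 and 2.52. INCENP, the scaffold, had 111, 146 and 97.6 FPKM in genistein, 38.6 and 88.8 in BMP6 and 55.3, 43 and 43.8 in DMSO. Its genistein libraries were all above the DMSO libraries, and the difference of 1.29 ± 0.37 did not pass (limma adjusted p = 0.0602). AURKB, the kinase of the complex, had 227, 201 and 137 FPKM in genistein, 239 and 545 in BMP6 and 87.2, 114 and 199.8 in DMSO. BIRC5 (survivin), the subunit that reads a histone mark at centromeres, had 199.9, 199.9 and 149.6 FPKM in genistein, 210.4 and 482 in BMP6 and 132, 172 and 191 in DMSO. For AURKB and BIRC5 the genistein and DMSO libraries overlapped, with log2 differences of 0.55 ± 0.45 and 0.15 ± 0.37, and BMP6 2 was far above all other libraries.

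Among the 12 spindle genes 6 rose. AURKA, the centrosomal kinase (ENSG00000087586; hg18, chromosome 20, 54377852 to 54400800), had 461, 447 and 448 FPKM in genistein, 365 and 316 in BMP6 and 80.5, 138 and 159.8 in DMSO. The genistein libraries were close to each other and above both BMP6 libraries, which were in turn above DMSO (log2 change 1.89 ± 0.33, limma adjusted p = 0.0126). HMMR, a spindle pole protein that binds TPX2, had 65, 108 and 164 FPKM in genistein, 141 and 91.6 in BMP6 and 18.9, 30.2 and 22.6 in DMSO, a wide spread within genistein that still cleared DMSO (log2 change 2.11 ± 0.41, limma adjusted p = 0.0179). NEK2, the kinase that separates centrosomes and the gene shown above without a CHR motif, had 126, 110.3 and 127 FPKM in genistein, 52 and 61.6 in BMP6 and 14.6, 34.5 and 41.5 in DMSO. Its BMP6 libraries lay between the other groups (genistein log2 change 2.09 ± 0.41, limma adjusted p = 0.0183). ASPM, a protein of spindle poles, had 62.5, 66.6 and 104 FPKM in genistein, 92.8 and 48 in BMP6 and 12.8, 25.3 and 18.2 in DMSO. DLGAP5 (HURP), which stabilises kinetochore fibres, had 76.5, 64.7 and 99 FPKM in genistein, 115 and 41.7 in BMP6 and 12.1, 27.4 and 23.6 in DMSO. Both cleared DMSO in every treated library, with log2 changes after genistein of 2.01 ± 0.41 for ASPM (limma adjusted p = 0.0209) and 1.93 ± 0.48 for DLGAP5 (limma adjusted p = 0.037). KIF2C (MCAK), a kinesin that shortens microtubules, had 187, 148 and 149.7 FPKM in genistein, 91.8 and 158 in BMP6 and 50.2, 50.0 and 61.8 in DMSO, with a log2 change of 1.56 ± 0.31 (limma adjusted p = 0.0191).

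TPX2, which activates AURKA and has the highest DMSO level of the spindle genes, was the gene nearest to the threshold on the outside. It had 409, 305 and 332 FPKM in genistein, 254 and 487 in BMP6 and 98, 167 and 157 in DMSO, with no overlap of genistein and DMSO and a log2 difference of 1.33 ± 0.36 (limma adjusted p = 0.0501). KIF11 (Eg5), the kinesin that pushes spindle poles apart, CKAP2, a microtubule-associated protein, and NUSAP1, which bundles microtubules around chromatin, also did not overlap with DMSO, at differences of 0.997, 1.12 and 0.64. KIF4A, a chromosome-bound kinesin, overlapped with DMSO at a difference of 0.82, and its reads may be shared with a near-identical copy. BORA, the AURKA cofactor that lets it activate PLK1, had 55.5, 52 and 52.9 FPKM in genistein, against 71.2, 56.5 and 38.1 FPKM in DMSO, and the genistein values fell within the DMSO range. None of the 12 spindle genes passed without genistein 3 or without DMSO 2, and 1 to 3 passed without any other genistein or DMSO library.

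The cyclin, CDK1 and entry group had the highest share of calls among the role groups, 6 of 9. CCNB1, cyclin B1 (ENSG00000134057; hg18, chromosome 5, 68498669 to 68509822), had 604, 502 and 521 FPKM in genistein, 525 and 548 in BMP6 and 131, 207 and 212 in DMSO. CCNB2, cyclin B2, had 421, 204 and 324 FPKM in genistein, 157 and 309 in BMP6 and 41.6, 104 and 103 in DMSO. CDK1, their kinase partner, had 422, 318 and 479.6 FPKM in genistein, 412 and 262 in BMP6 and 73.7, 173 and 153 in DMSO. All treated libraries of these 3 genes exceeded all DMSO libraries, and DMSO 1 was the lowest each time. The log2 changes after genistein were 1.59 ± 0.30 for CCNB1 (limma adjusted p = 0.0174), 1.98 ± 0.48 for CCNB2 (limma adjusted p = 0.0362) and 1.67 ± 0.40 for CDK1 (limma adjusted p = 0.0349). CDC25B and CDC25C are phosphatases that remove the inhibitory phosphates of CDK1. CDC25B had 227, 257 and 159 FPKM in genistein, 109 and 211 in BMP6 and 51.5, 63.9 and 90.2 in DMSO, and CDC25C had 148, 118 and 106 FPKM in genistein, 61.7 and 112 in BMP6 and 17.1, 47.9 and 48.5 in DMSO. Their log2 changes were 1.64 ± 0.38 (limma adjusted p = 0.0304) and 1.81 ± 0.46 (limma adjusted p = 0.0412). PLK1, the polo kinase that promotes entry and acts throughout mitosis, had 288, 276 and 348 FPKM in genistein, 231 and 336 in BMP6 and 141, 117 and 133 in DMSO. Its DMSO libraries were tight, and the log2 change was 1.21 ± 0.28 (limma adjusted p = 0.0313).

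The other 3 genes of this group, CCNA2, FOXM1 and MELK, did not pass. CCNA2, which acts from S phase into early mitosis, had 98, 52 and 92.2 FPKM in genistein, 66.9 and 62.1 in BMP6 and 46.3, 78.5 and 60.9 in DMSO, with genistein 2 inside the DMSO range (log2 difference 0.36 ± 0.36, limma adjusted p = 0.533). FOXM1, the transcription factor of mitotic genes, had 115, 83.5 and 84.6 FPKM in genistein, 81.6 and 167 in BMP6 and 39.4, 63.4 and 97.3 in DMSO, and its groups overlapped (log2 difference 0.57 ± 0.43, limma adjusted p = 0.397). MELK, a kinase abundant in dividing cells, had 85.2, 49.6 and 77.3 FPKM in genistein, 54 and 86.4 in BMP6 and 35.9, 37 and 37.1 in DMSO, without overlap but short of the threshold (log2 difference 0.89 ± 0.34, limma adjusted p = 0.121). In this group of 9, none passed without genistein 1, 2 or 3 or without DMSO 2, 2 passed without DMSO 1 and 1 without DMSO 3.

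None of the 3 genes of anaphase and exit passed after genistein, although UBE2C held the highest value of the 52 genes in any library. CDC20, the activator of the anaphase promoting complex, had 358, 447 and 216 FPKM in genistein, 95.7 and 402 in BMP6 and 65.2, 105 and 107 in DMSO. PTTG1 (securin), the inhibitor of separase, had 602, 514 and 323 FPKM in genistein, 143 and 703 in BMP6 and 135, 166 and 192 in DMSO. UBE2C, the ubiquitin-conjugating enzyme of the complex, had 649, 911 and 309 FPKM in genistein, 129 and 678 in BMP6 and 275, 519.7 and 368 in DMSO. In all 3 genes BMP6 1 held much lower values than BMP6 2, and genistein 3 lower values than genistein 1 and 2. The log2 differences from DMSO were 1.84 ± 0.55 for CDC20 (limma adjusted p = 0.0649), 1.51 ± 0.57 for PTTG1 (limma adjusted p = 0.121) and 0.60 ± 0.66 for UBE2C (limma adjusted p = 0.574), and genistein overlapped with DMSO in UBE2C alone. PTTG1 has near-identical copies in the genome, and the labels do not say how such reads were split. Of these 3 genes 2 passed when either BMP6 library was left out.

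Of the 7 cytokinesis genes PRC1 alone rose after genistein. PRC1, which cross-links the microtubules of the central spindle (ENSG00000198901; hg18, chromosome 15, 89310279 to 89338814), had 199, 218 and 224 FPKM in genistein, 222 and 212 in BMP6 and 25.6, 54.5 and 67.9 in DMSO. The 5 treated libraries lay close together and above every DMSO library (log2 change 2.20 ± 0.38, limma adjusted p = 0.0128). ECT2, the exchange factor that activates RhoA for the contractile ring, had 47.1, 75.8 and 116 FPKM in genistein, 175 and 24.9 in BMP6 and 12.2, 14.2 and 16.9 in DMSO, a larger difference with a far wider spread (2.31 ± 0.68, limma adjusted p = 0.0617). RACGAP1, the centralspindlin subunit that binds ECT2, and ANLN (anillin), the scaffold of the ring, also lay above DMSO in every genistein library, at differences of 1.12 and 1.35, and DMSO 1 carries a FAIL status for ANLN. KIF23, the motor subunit of centralspindlin, had 81.3, 92.8 and 89.5 FPKM in genistein, 105 and 70.4 in BMP6 and 138, 32.4 and 27.2 in DMSO. DMSO 1 was the highest library for KIF23, while DMSO 2 and 3 were the lowest, and the difference was 0.81 ± 0.58. With single libraries left out, the KIF23 difference ran from 0.38 to 1.53, and it passed in 1 of these 8 omissions. The PRC1 call was lost without genistein 3 or without DMSO 2. KIF14, a kinesin that binds PRC1, was the least abundant of the 52 at 8.99, 0 and 16.2 FPKM in genistein, 12.5 and 7.63 in BMP6 and 2.10, 2.95 and 4.63 in DMSO, and it is listed at 0 in genistein 2 with a status of OK in all 8 libraries. KIF20A, a kinesin of the central spindle, had 80.9, 88.9 and 70.4 FPKM in genistein, 124 and 192 in BMP6 and 142, 89.6 and 73.8 in DMSO, overlapping groups and a difference of -0.29 ± 0.34.

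Of the 4 condensin and chromosome surface genes, 2 rose after genistein. NCAPH, a subunit of condensin I (ENSG00000121152; hg18, chromosome 2, 96365211 to 96405001), had 87.1, 73 and 88.9 FPKM in genistein, 59.4 and 61.6 in BMP6 and 30.4, 17.9 and 22 in DMSO. MKI67 (Ki-67), the protein that coats mitotic chromosomes and a common proliferation marker, had 74.5, 59.7 and 62 FPKM in genistein, 63.6 and 84.9 in BMP6 and 20.0, 30.9 and 32.5 in DMSO. Both cleared DMSO in every treated library, with log2 changes after genistein of 1.81 ± 0.31 for NCAPH (limma adjusted p = 0.0122) and 1.23 ± 0.32 for MKI67 (limma adjusted p = 0.0438). NCAPG, another condensin I subunit, had 87.9, 83.3 and 64.2 FPKM in genistein, 79.1 and 108 in BMP6 and 43.5, 123 and 66.7 in DMSO. SMC4, the core ATPase of both condensins, had 117, 127 and 102 FPKM in genistein, 41.9 and 142 in BMP6 and 118, 139 and 95.2 in DMSO. For these last genes genistein and DMSO overlapped, at differences of 0.13 ± 0.41 for NCAPG and -0.02 ± 0.44 for SMC4, and BMP6 1 was the lowest library for SMC4. The 2 calls became none without genistein 1, genistein 3 or DMSO 2.

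**Figure D3:**
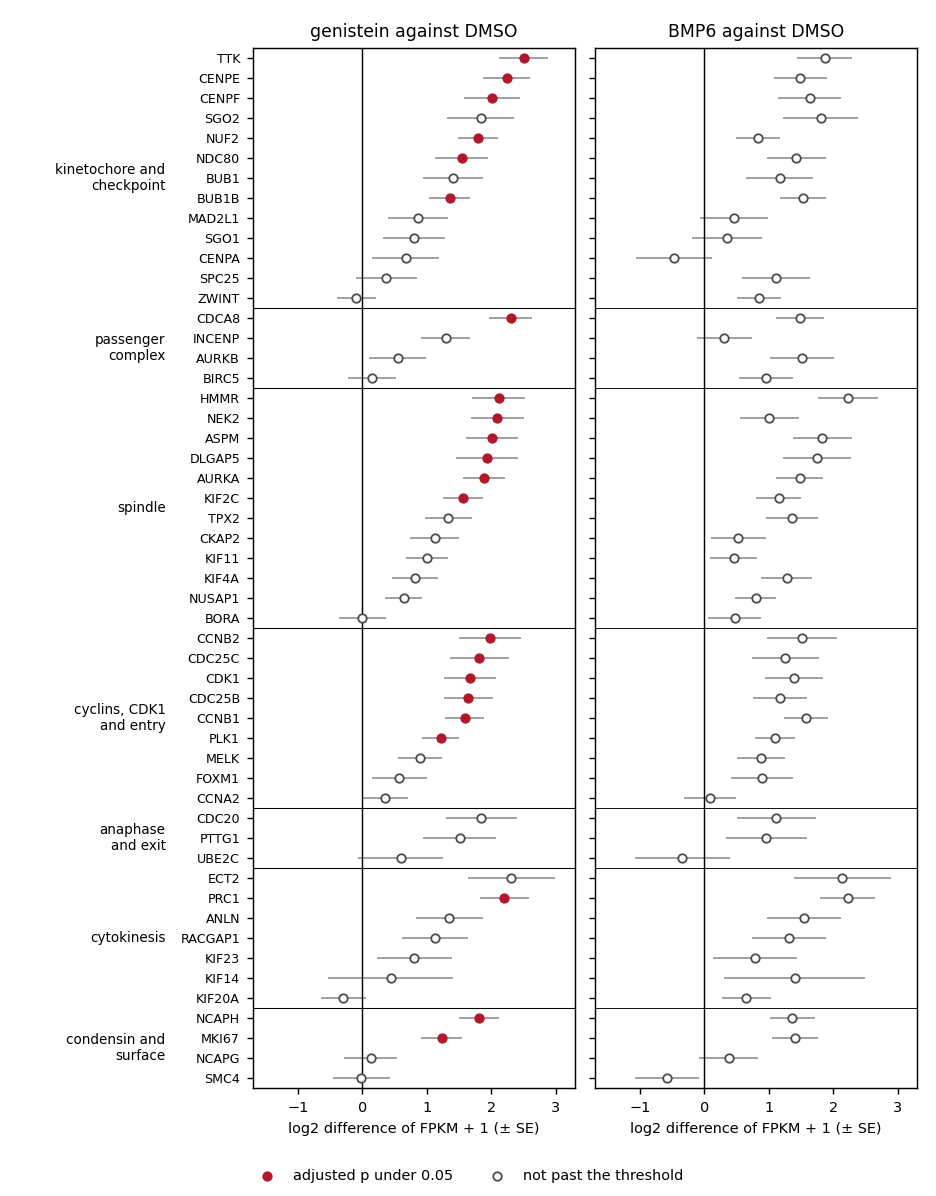
Log2 differences of the 52 genes (rows, by role) from DMSO, with the SE from limma as bars, for genistein (left panel) and BMP6 (right panel), where filled points have an adjusted p under 0.05. The genistein panel has 22 filled points and the BMP6 panel none, and most points of both lie right of 0, with medians of 1.34 and 1.17.

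The BMP6 libraries, set against the same DMSO libraries, gave no call among the 52 genes by limma, where 0.34% of all tested genes were higher and 0.498% lower. At an unadjusted limma p under 0.05, 31 of the 52 were higher and none was lower, against 8.32% and 10.5% of all tested genes. The median log2 difference was 1.17, against -0.03 over all tested genes, and 49 genes were positive. The 11 housekeeping genes had a median of 0.84 after BMP6, and with scaling to them the median of the 52 genes was 0.47, against -0.68 over all tested genes, with 40 genes positive and 1 past the test. In 36 genes both BMP6 libraries lay above all DMSO libraries, which held for 16.1% of all tested genes, and in none did both lie below, which held for 17.3%. The nearest to the threshold were PRC1 (2.22 ± 0.43, limma adjusted p = 0.0629), HMMR (2.23 ± 0.46, limma adjusted p = 0.0704) and CCNB1 (1.58 ± 0.34, limma adjusted p = 0.0766). Below 0 were SMC4 (-0.58), CENPA (-0.47) and UBE2C (-0.34), each with BMP6 1 as its lowest library. AURKB and ZWINT, which did not pass after genistein, had BMP6 differences of 1.51 ± 0.50 and 0.85 ± 0.35, also not past the test (limma adjusted p = 0.175 and limma adjusted p = 0.241). Without BMP6 2, so that BMP6 1 alone stood for the group and was assumed to vary like the others, 13 genes were higher and 1 was lower, without BMP6 1 none passed, and without DMSO 1 a single gene passed.

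Set against BMP6 itself, genistein gave no call among the 52 by limma in the reported fit or in any of the 22 alternatives, where 0.64% of all tested genes were higher and 0.75% lower in the reported fit. At an unadjusted p under 0.05, 3 genes were higher and 2 lower, against 8.25% and 6.41% of all tested genes. The median log2 difference was 0.18, against 0.12 over all tested genes. For CCNB1 the difference was 0.01 with a 95% interval of -0.77 to 0.79, for PRC1 -0.02 (-0.999 to 0.95) and for TTK 0.63 (-0.35 to 1.62), intervals that leave room for differences in both directions. All genistein libraries lay above both BMP6 libraries in 8 of the 52 genes, against 16.3% of all tested genes. All lay below in 5 of the 52, against 12.6%. Neither share exceeded that of all tested genes. The intervals are not adjusted for the number of genes. Where they leave out 0, the gene still did not pass, as for NUF2, ZWINT and KIF20A (limma adjusted p = 0.256, 0.263 and 0.308). NUF2 was among the 8 at 0.95 (0.16 to 1.75). The 5 below were ZWINT at -0.94 (-1.73 to -0.14), KIF20A at -0.95 (-1.83 to -0.07), AURKB at -0.97 (-2.11 to 0.18), BIRC5 at -0.81 (-1.76 to 0.15) and KIF4A at -0.45 (-1.37 to 0.47).

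Within the treated groups and DMSO, the values of the 52 genes varied with transcript length, taken from each gene's longest protein-coding transcript in GENCODE. Over the 52 genes the Spearman correlation of length with the log2 difference of BMP6 1 minus BMP6 2 was 0.489, and that with genistein 3 minus genistein 1 was 0.497, against 0.468 and 0.463 over 11546 genes with a length. For DMSO 1 minus DMSO 3 it was 0.29 over the 52 genes, against 0.123. These correlations describe genes that share the same libraries and are not independent. Of the 26 genes with transcripts of 914 to 3034 bases, 5 were higher in BMP6 1 than in BMP6 2, with a median log2 difference of -0.58, and of the 26 with 3102 to 12678 bases, 17 were higher, with a median of 0.59. The short anaphase genes UBE2C, PTTG1 and CDC20 were lower in BMP6 1, and the longer ECT2, MAD2L1 and RACGAP1 higher. Against the trend, the long SMC4 (log2 difference -1.73) and INCENP (-1.18) were lower in BMP6 1, and the shorter DLGAP5 (1.44) was higher. Between groups the correlation was 0.0948 for genistein minus DMSO and 0.213 for BMP6 minus DMSO. With the length trend removed from each library, an alternative added after the data were seen, 25 genes passed after genistein and 2 after BMP6.

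**Figure D4:**
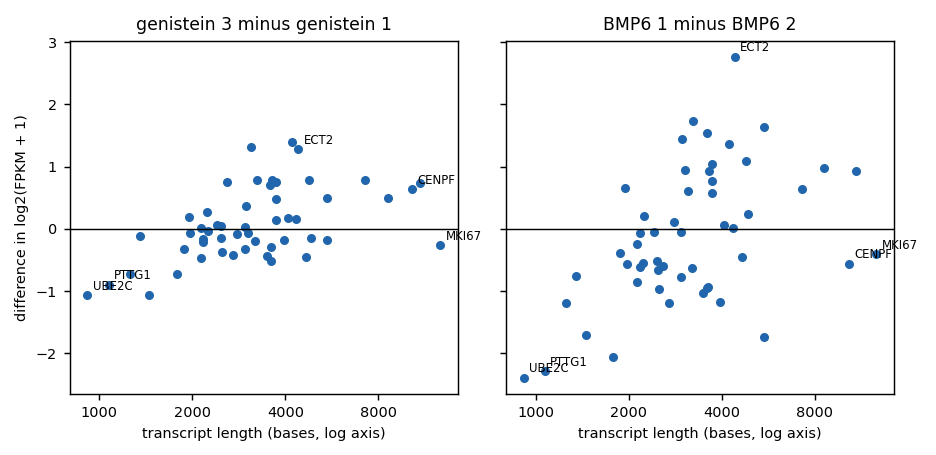
Difference in log2(FPKM + 1) between libraries of 1 group (vertical axis) against transcript length in bases (horizontal axis, log scale) for the 52 genes, with genistein 3 minus genistein 1 on the left and BMP6 1 minus BMP6 2 on the right. Short transcripts lie mostly below 0 and long ones more often above it, with Spearman correlations of 0.497 and 0.489.

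Other genes of the cell cycle were counted by list. Among 65 further G2 and mitosis genes outside the 52, 17 rose after genistein and 1 fell (LMNB1, the nuclear lamina protein lamin B1, -1.87), with a median log2 difference of 0.84. That is 26.2% higher and 1.54% lower, against 6.11% and 5.96% of all tested genes, whose median was 0.05. CKAP2L, a spindle protein, had 57, 61.7 and 61.4 FPKM in genistein, 34.6 and 29.2 in BMP6 and 5.68, 14.6 and 2.56 in DMSO (3.09 ± 0.52, limma adjusted p = 0.012), and CENPN, an inner kinetochore protein, had 219.9, 208 and 199 FPKM in genistein, 85.7 and 96.3 in BMP6 and 56.8, 65.4 and 75.4 in DMSO (1.66 ± 0.26, limma adjusted p = 0.00966). Every genistein library was above every BMP6 and DMSO library for both. Of 18 anaphase promoting complex genes, ANAPC1, a scaffold subunit, rose (1.28) and none fell. Of 14 cohesin genes, WAPL, which releases cohesin, rose (log2 change 1.69) and HDAC8, which recycles it, fell (-1.83). Of 16 genes for DREAM, MuvB and NF-Y factors, none rose and RBBP4, a histone-binding MuvB subunit, fell. RBBP4 had 18.3, 3.54 and 7.84 FPKM in genistein, against 120.05, 61.3 and 196 FPKM in DMSO (-3.64 ± 0.67, limma adjusted p = 0.0154). MYBL2 (B-MYB) had 136, 122 and 120 FPKM in genistein, 345 and 681 in BMP6 and 109, 109 and 143 in DMSO. It was lower in genistein than in BMP6 (-1.94 ± 0.37, limma adjusted p = 0.0499). Its BMP6 difference from DMSO did not pass (2.01 ± 0.37, limma adjusted p = 0.0557). Of 23 tested CDK inhibitor and G2 checkpoint genes, CDKN2B, the checkpoint gene RAD17 (log2 change 1.91) and the polo-like kinase PLK3 (2.36) rose and none fell. CDKN2B (p15), an inhibitor of CDK4 and CDK6, had 41.2, 31.7 and 20.5 FPKM in genistein, 0 and 0 in BMP6 and 1.35, 0 and 2.15 in DMSO. It was above every BMP6 and DMSO library in all 3 genistein libraries (3.99 ± 0.55, limma adjusted p = 0.00692). Against the same 6.11% and 5.96%, 1 gene is 5.56% of the anaphase promoting complex list, 7.14% of the cohesin list and 6.25% of the DREAM list, and the 3 checkpoint genes are 13% of theirs. After BMP6 no gene of these lists passed by limma.

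The 43 DNA replication and G1/S genes were counted in the same way. None rose after genistein and 4 fell, namely CCNE2, UNG (log2 change -2.02), FEN1 and E2F2 (-2.30), with a median log2 difference of -0.16. The 4 are 9.3% of the list, against 5.96% of all tested genes that were lower. FEN1, the flap endonuclease of lagging strand synthesis, had 28.6, 29 and 24.3 FPKM in genistein, 69.9 and 116 in BMP6 and 54.5, 71.5 and 90.9 in DMSO, with the genistein libraries below all others (-1.35 ± 0.34, limma adjusted p = 0.0387). CCNE2, cyclin E2, was listed at 0 in all genistein and BMP6 libraries and at 3.48, 6.95 and 3.71 FPKM in DMSO. After BMP6 the median of the 43 genes was 0.77 and none passed by limma, with 15 higher (34.9%) and 3 lower (6.98%) at an unadjusted p under 0.05, against 8.32% and 10.5% of all tested genes. Whether the 2 lists differ in their response was not tested.

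Across the libraries, FPKM totals ranged from 1704599 to 3105197 and genes listed at 0 from 8347 to 10364, and the sequencing depth behind the FPKM values is unknown. The hepatocyte markers were present (9 of 9, summing to 132500 to 213800 FPKM in genistein, 204100 to 224400 in BMP6 and 176300 to 220800 in DMSO), while COL1A1, COL1A2, COL3A1, DCN and THY1 of fibroblasts and PTPRC and CD3E of leukocytes were at 0 in all 8 libraries. The hepatocyte sums combine markers that went opposite ways. After genistein 1 of the 9 was lower by limma and 0 were higher. APOA1 had 12742.2, 7931.83 and 3983.49 FPKM in genistein, against 58895.8, 50548.5 and 50517.3 in DMSO. Every genistein library lay below every DMSO library for APOA1 and TTR, and above for ALB alone. The 6 leukocyte genes summed to 1243 to 1955 FPKM in genistein, 1563 to 2406 in BMP6 and 3259 to 4865 in DMSO, mostly from LYZ, and the 3 endothelial genes to at most 1.71. The 6 fibroblast genes summed to at most 2.92 in genistein, 19.5 in BMP6 and 4.91 in DMSO, all from PDGFRB. LYZ fell after genistein (-1.58, limma adjusted p = 0.0448), whereas CD68 rose, with 84.3, 86.7 and 68.8 FPKM in genistein, 59.6 and 41.7 in BMP6 and 40.6, 31.4 and 32.4 in DMSO (1.18, limma adjusted p = 0.0406). CD14 had 32, 74.4 and 23.9 FPKM in genistein, 9.32 and 15.7 in BMP6 and 0, 0 and 19.3 in DMSO and did not pass (limma adjusted p = 0.0604). The part of these leukocyte genes in the values of the 52 genes was not tested. DMSO 1 held the lowest value of 33 of the 52 genes, and without DMSO 1, genistein 2 and BMP6 1 together 32 of the 52 passed after genistein.

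**Figure D5:**
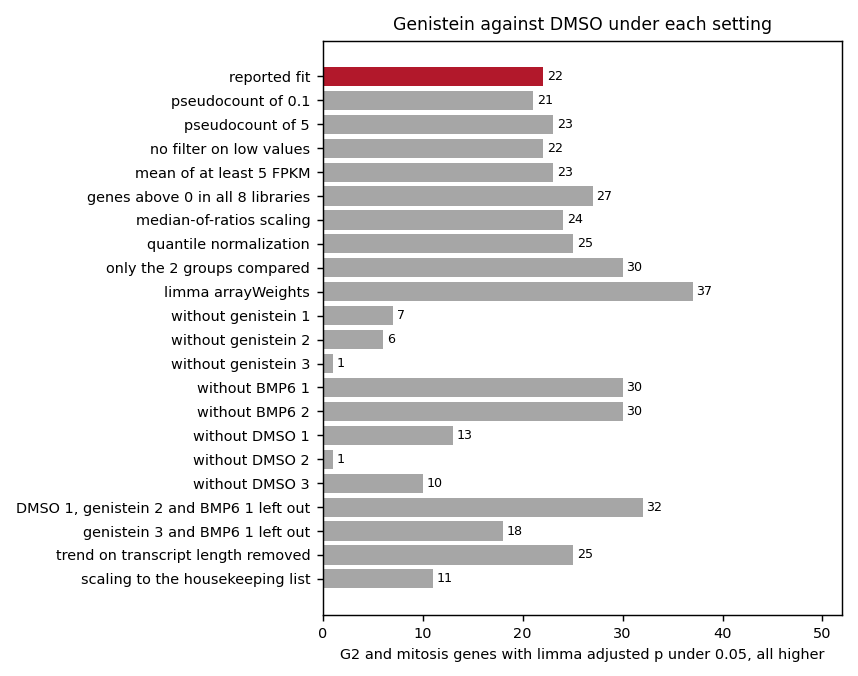
Number of the 52 genes with limma adjusted p under 0.05 in genistein against DMSO (horizontal axis) in the reported fit (red) and under the alternatives fitted without a replicate block (grey), where KIF14 was not tested in the setting that needs a value above 0 in all 8 libraries. Counts run from 1 without genistein 3 or DMSO 2 to 37 with array weights, which weighted DMSO 2 most. Each call is of a higher value.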

How the data were processed

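Each library's file holds 1 FPKM value per Ensembl gene with an interval and a status, as the authors deposited it and per the file headers. The submitters' processing notes list the build hg18 and the tools Cufflinks 1.0.3, Cuffdiff, Bowtie and TopHat 1.1.0, with no settings or order. FPKM keep no read counts, so the depth is unknown and no count model, counting interval or floor was used. Groups came from the sample titles. The 52 genes, their roles, the other lists and the alternatives were chosen with earlier results of these data known.

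Values were converted to log2(FPKM + 1), which understates changes of low genes. The 12661 genes reaching 1 FPKM in 2 or more libraries were fitted across all 8 libraries with limma 3.58.1 in R 4.3.3 (intensity trend, 5 residual degrees of freedom), a procedure tested on simulated data first. Two-sided p-values were adjusted by Benjamini-Hochberg over these genes, with a threshold of 0.05. Every member could be named. Values in every library were given for members that passed, for role groups of 4 or fewer and for the most abundant members, and other lists were given by counts with up to 6 genes of smallest p; further genes were chosen after their values were seen. Alternatives changed the pseudocount (0.1, 5), the low-value filter, the scaling (median of ratios, quantile), the libraries fitted, array weights and a replicate block. Removal of the length trend, omission of genistein 3 with BMP6 1, and housekeeping scaling were added after the data were seen. Gene coordinates are hg18 from the files, promoters are GRCh38.p14 from RefSeq, and the motifs were searched on both strands.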

Additional observations from a re-analysis of the deposited data

How the results depend on the processing

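Of 22 alternatives for genistein against DMSO, the count of 22 genes moved by more than 1.5 times under array weights (37), the replicate block (5) and housekeeping scaling (11), and between 1 and 30 when single libraries were left out. Among all tested genes the calls ran from 229 to 4649, the latter under array weights. Those weights were 5.26 for DMSO 2 and 2.11 for DMSO 3, against 0.355 for DMSO 1. They were 1.53, 0.968 and 1.46 for genistein 1, 2 and 3, and 0.343 for each BMP6 library. For BMP6 against DMSO the count of 0 became 1 with a pseudocount of 5, 2 with genes above 0 in all libraries, 7 with median-of-ratios scaling, 3 with quantile normalization, 2 with the length trend removed and 1 with housekeeping scaling, and lay between 0 and 14 when single libraries were left out. Genistein against BMP6 stayed at 0 under all 22. Correlations of same-numbered libraries' deviations from their group mean were -0.146, -0.0652 and -0.00459 for genistein with DMSO. No genistein library correlated best with the DMSO library of its own number. With BMP6 the same-numbered values were -0.247 and 0.286 for genistein and 0.0554 and 0.00142 for DMSO. The largest value was between libraries of different number, 0.594 for genistein 3 with BMP6 1. The values of BMP6 1 also correlated more closely with genistein 3 (0.8888) than with BMP6 2 (0.847). Over all tested genes with a length, the deviations of genistein 3 and BMP6 1 from the mean of 8 libraries correlated with length at 0.302 and 0.319. The cause of this likeness was not tested. Deviations from means of 2 or 3 libraries cannot settle whether replicate numbers pair the samples. For both BMP6 comparisons the count was 0 with the replicate block, as in the reported fit. The cause of the shifts in counts was not tested.

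Signs turned only for genes without a call. With housekeeping scaling the log2 difference of genistein from DMSO became -0.39 for SPC25, -0.095 for CENPA, -0.23 for AURKB, -0.62 for BIRC5, -0.13 for NUSAP1, -0.41 for CCNA2, -0.20 for FOXM1, -0.18 for UBE2C, -0.15 for KIF14 and -0.64 for NCAPG. With array weights it was -0.12 for SPC25, 0.064 for BORA and -0.36 for NCAPG. Without DMSO 1, genistein 2 and BMP6 1 it was -0.33 for SPC25, -0.066 for BIRC5, 0.22 for BORA and -0.27 for NCAPG. Without genistein 3 and BMP6 1 it was 0.059 for ZWINT, 0.0048 for BORA, -0.38 for KIF14 and 0.067 for SMC4. With the length trend removed it was 0.044 for ZWINT and 0.057 for BORA, and with a pseudocount of 0.1 it was -0.37 for KIF14. With single libraries left out, values ran from -0.27 to 0.059 for ZWINT, -0.24 to 0.20 for BORA, -0.38 to 1.67 for KIF14, -0.16 to 0.11 for SMC4 and -0.22 to 0.52 for NCAPG.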
